A study of Rattus norvegicus with 20 samples.

Results

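The genes described here were those with the strongest predominance of expression in the dorsal hippocampus of adult rats. They are 100 of the 32883 rows of the deposited expression table. A row is a gene, and since the rows carry no gene identifiers, genes are given by the number of their row, and no gene names, positions or sequences were assigned. The members were chosen by their measured values. The dorsal to ventral ratio, D, was taken as (mean dorsal + 1)/(mean ventral + 1) of the normalized counts, once in each of 2 datasets. A row was kept when its mean was at least 50 normalized counts in each dataset, when the levels of the datasets, each with 5 added, differed by less than 4 times, and when D was at least 2 in both. Of 12059 rows within the limits of level, 125 had a D of at least 2 in the first dataset, 212 in the second and 103 in both, and the 100 with the largest smaller D of the 2 datasets were taken. The dorsoventral differences of the members are therefore a description, and counts of members called by a test on them support nothing.

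Male Wistar rats aged 3 months were control handled animals without any treatment. The hippocampus was cut in 3 equal parts along its long axis, with the dentate gyrus, the fields of Ammon's horn and the subiculum in each, and the dorsal and the ventral part were used. In the polyA dataset (7 animals, 14 samples), RNA was extracted with Qiazol and enriched with oligo(dT) beads, which hold RNA with a poly(A) tail. In the RBD dataset (3 other animals, 6 samples), RNA was extracted with ExtractRNA reagent and ribosomal RNA was depleted, so that RNA without a tail is also kept. The animals, the reagent and the library type thus change together between the datasets and cannot be told apart. The polyA samples had 23825086 to 25262001 reads on genes and the RBD samples 14920611 to 18647986. In tissue samples, fewer cells of a type and less RNA per cell cannot be told apart, and without gene names neither the tissue nor any cell type could be checked by its markers.

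The hippocampus is built from the same layers and cell types along its whole length, but its poles have different connections. The dorsal pole is known for its role in spatial memory and navigation, and the ventral pole for its links with the amygdala and hypothalamus and its role in emotional behaviour. Genes with a steep gradient are commonly found in its principal neurons, the pyramidal cells and the granule cells, where they mark positions along the axis.

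The members spanned low to very high levels of expression, and their predominance in the dorsal hippocampus was mostly between 2 and 4 times. The median of their mean levels was 678 normalized counts in dorsal and 237 in ventral polyA samples, and 715 and 183 in the RBD samples. The members held 0.966% to 1.06% of the reads of the dorsal polyA samples and 0.346% to 0.418% of those of the ventral ones. In RBD samples these shares were 1.20% to 1.31% and 0.441% to 0.460%. Over all members D had a median of 2.67 (polyA) and 2.96 (RBD). The smaller D of the 2 datasets was at least 3 in 32 members, at least 4 in 20, at least 5 in 12 and at least 8 in 5.

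By the mean of all 20 samples, 39 members had 50 to 300 normalized counts, 33 had 300 to 1000, 18 had 1000 to 5000 and 10 had more than 5000. For all rows within the limits of level, the shares of these classes were 27.7%, 34.4%, 31.8% and 6.08%. The median smaller D was similar in the classes, with 2.62, 2.54, 2.64 and 2.39 from the lowest class to the highest. The limit of 2 in the rule bounds these values from below. The highest smaller D was 88.3, 12.3, 6.43 and 4.57 in the same order. In the ventral part, 15 members fell below 50 normalized counts in polyA and 21 in RBD samples. These members met the limit of level through their dorsal values. No member was that low in the dorsal part of either dataset, but the rule fixes this in advance. A mean of at least 50 together with a D of at least 2 puts the dorsal mean above 50.

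**Figure D1:**
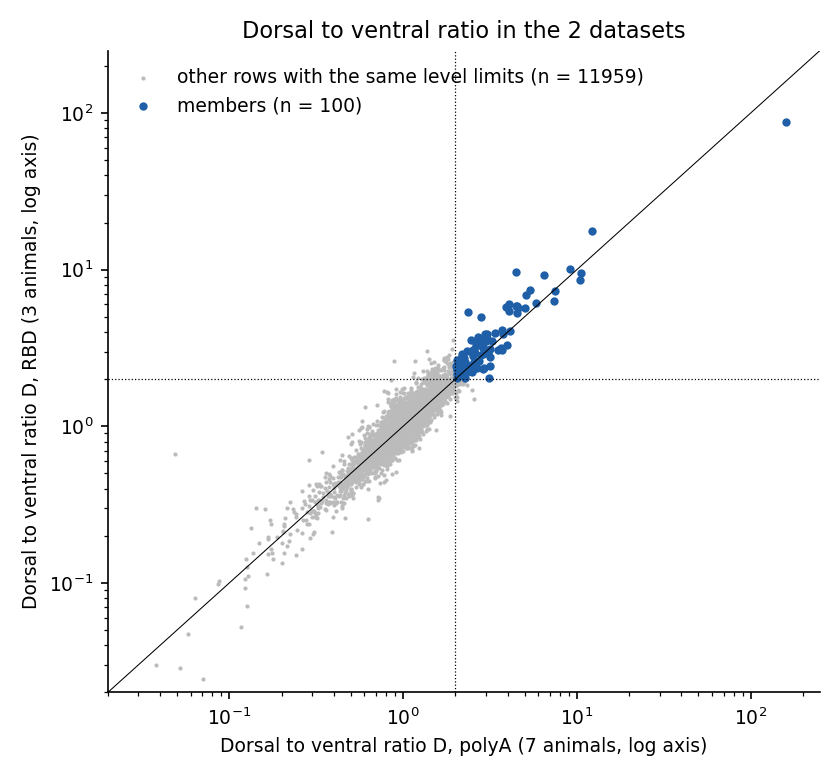
Dorsal to ventral ratio D in polyA samples (horizontal, 7 animals) and RBD samples (vertical, 3 animals), both on log axes, for the 100 members (blue) and the 11959 other rows within the limits of level (grey); dotted lines mark a D of 2 and the solid line equal ratios. The members lie in the upper right corner by construction, 69 of them above the line of equal ratios, and a single gene, row 18333, stands far from the rest.

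Row 18333 had the largest ratio and was close to 0 in the ventral part. In dorsal polyA samples it had 216 normalized counts in the lowest, 339 in the median and 393 in the highest sample. In the ventral polyA samples it had 0 to 2.68 normalized counts, that is, 0 to 3 reads. The dorsal RBD samples held 230, 497 and 348 normalized counts and the ventral ones 1.3, 2.3 and 5.6 in replicates 1 to 3. The dorsal and ventral samples were thus far apart in both datasets. Summed over the samples of a part (2481 dorsal and 8 ventral reads in polyA), the level was 320 times higher in the dorsal part (95% exact binomial interval 162 to 742). In RBD samples, with 861 and 7 reads, it was 123 times higher (59.4 to 307). These intervals cover counting error only, for a row picked as the steepest. The ratios of summed reads lack the 1 added in D, which was 160 in polyA and 88.3 in RBD samples.

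The next genes kept a measurable ventral level. Row 22847 had 638 to 923 normalized counts (median 732) in dorsal and 34.0 to 74.2 (median 66.1) in ventral polyA samples. Its RBD values were 776, 758 and 494 in the dorsal and 47.7, 26.5 and 37.9 in the ventral part. The polyA means were 753 ± 93.2 and 60.5 ± 15.1 (SD, n = 7). D was 12.3 (polyA) and 17.6 (RBD), and the ratio was 9.52 or higher in each animal. Row 18095 was the most abundant of the 4 steepest genes in polyA samples, with 1890 to 2329 normalized counts (median 1954) in the dorsal and 101 to 294 (median 195) in the ventral part. In the RBD dataset its mean was lower than in polyA in both parts, with 975, 1006 and 699 in the dorsal and 101, 83.0 and 95.4 in the ventral samples. Its D was nevertheless 10.6 in polyA and 9.52 in RBD samples.

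Row 5427 had 143 to 392 normalized counts (median 210) in dorsal and 14.3 to 54.4 (median 19.5) in ventral polyA samples. The highest sample of both parts was that of polyA replicate 3, so that the ratio of this animal, 7.09, remained within the range of 6.13 to 12.3 of the other 6 polyA animals. The RBD samples had 371, 408 and 560 normalized counts in the dorsal and 31.0, 59.9 and 39.3 in the ventral part, which gave a D of 10.1 against 9.10 in polyA.

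Together with these 4 genes, 20 members had a D of at least 4 in both datasets. Their mean level in dorsal polyA samples ranged from 113 to 17895 normalized counts, and 6 of them had a ventral mean below 50 in polyA and 10 in RBD samples. For these 20 genes D had a median of 5.23 (polyA) and 6.58 (RBD). In 19 of them the dorsal value was at least 2 times the ventral value in each of the 10 animals, and in 10 at least 4 times. The exception was row 1944, chosen after its values were seen, whose ratio was 1.79 in polyA replicate 7. At low levels, row 29207 had 85.0 to 141 (median 128) normalized counts in dorsal and 12.5 to 25.1 (median 17.8) in ventral polyA samples, the lowest ventral mean over both datasets after row 18333. Its RBD values were 97.0, 103 and 69.6 in the dorsal and 20.6, 12.7 and 8.42 in the ventral part, with no overlap.

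**Figure D2:**
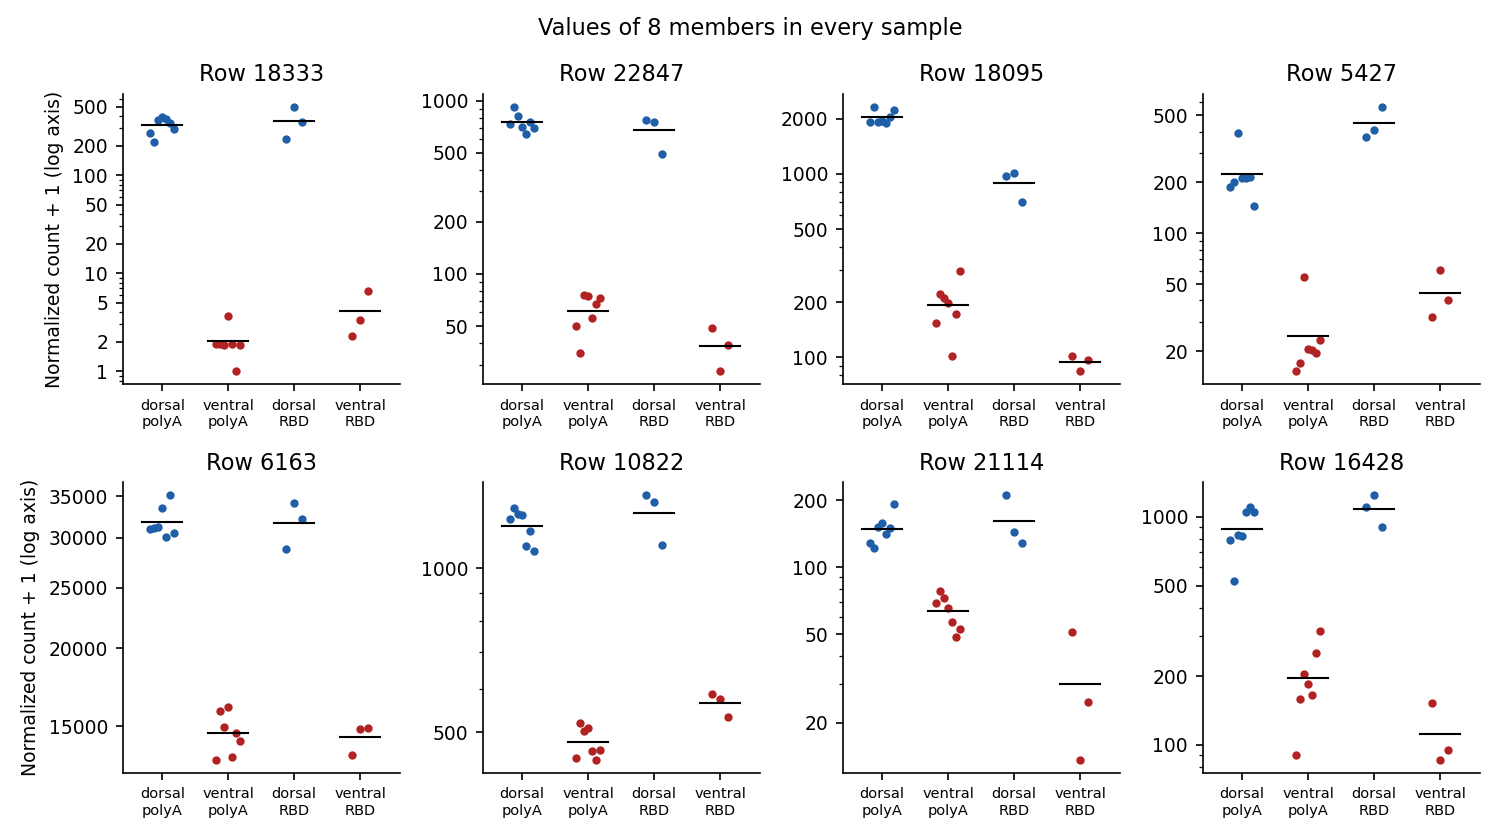
Normalized count + 1 (log axis) of 8 members in every sample, with 1 point per sample (7 polyA and 3 RBD animals), dorsal in blue and ventral in red, and a line at the mean. Dorsal and ventral samples do not overlap in any of the 8 genes; row 5427 shows the high values of polyA replicate 3 in both parts, and rows 21114 and 16428 have lower ventral means in RBD than in polyA samples.

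The 3 most abundant members had a D between 2.17 and 3.32. Row 6163, with the highest mean of all members, had 30094 to 35105 normalized counts (median 31145) in dorsal and 13281 to 16125 (median 14627) in ventral polyA samples. In the RBD samples it had 28786, 34071 and 32160 in the dorsal and 13517, 14840 and 14922 in the ventral part. The polyA means were 31795 ± 1809 and 14633 ± 1106 (SD, n = 7). D was 2.17 (polyA) and 2.20 (RBD), and single animals lay between 1.96 and 2.40.

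Row 7124 had 21337 to 24468 normalized counts (median 22118) in dorsal and 6999 to 9911 (median 8165) in ventral polyA samples, and D was 2.69 (polyA) and 3.32 (RBD). Row 12205 had 14479 to 16136 (median 15257) in dorsal and 5465 to 8106 (median 6817) in ventral polyA samples. In RBD samples its level was higher in both parts, with 35217, 34350 and 38774 in the dorsal and 12115, 13459 and 13823 in the ventral part, and D was 2.75 against 2.24 in polyA. Across the 10 members with more than 5000 normalized counts, D in polyA ranged from 2.16 to 4.57. The highest value was that of row 21397, the fourth most abundant member, singled out after its values were seen, with a D of 5.70 in RBD and ratios of 3.29 to 8.49 in single animals.

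The ratios of single animals make up the means that the rule used, so the following counts are a description that the choice of the members largely fixes. The dorsal value was higher than the ventral one in all 10 animals for 97 members and in 9 of 10 for the other 3. It was at least 2 times higher in 907 of the 1000 pairs of a member and an animal, and in each of the 10 animals for 58 members. Of the 68 members with a smaller D below 3, 27 reached a ratio of 2 in every animal. The median ratio over the members was 2.46 to 3.04 in the single polyA animals and reached 3.16 in the RBD animals, and the 2 datasets overlapped.

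**Figure D3:**
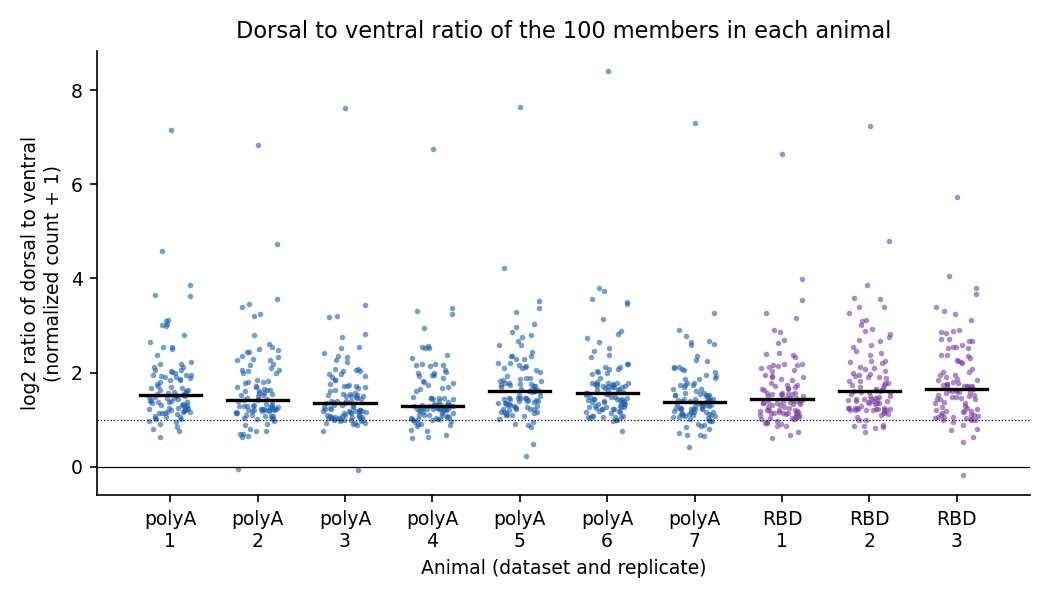
log2 ratio of dorsal to ventral (normalized count + 1) of the 100 members in each of the 10 animals, polyA in blue and RBD in purple, with the median as a black line; the dotted line marks a ratio of 2 and the solid line equal values. The medians lie between 2.46-fold and 3.16-fold, and 3 values, each of a different gene, lie below the solid line.

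The samples of the 2 parts did not overlap in 95 members in polyA, where this held for 11.8% of all rows tested, and in 98 members in RBD, where it held for 18.6%. With limma's moderated test on the whole table, at a Benjamini-Hochberg adjusted p below 0.1 and dorsal higher, 99 members were called in polyA (27.5% of all rows tested) and 99 in RBD samples (14%). With the animal as a block the test called all 100 members in polyA (30.9% of all rows tested) and in RBD (20.3%). The rule used these contrasts, so nothing is read from these counts. The median log2 fold change of the members was 1.44 in polyA and 1.56 in RBD, where the median over all rows tested was 0.00433 and -0.00410. The member not called in polyA was row 18606, and the one not called in RBD was row 12449.

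These 2 rows, with rows 19484, 6347 and 22459, were the 5 members in which the samples of the 2 parts overlapped in at least 1 dataset, and apart from row 19484 they were singled out after their values were seen. Row 18606 had 147, 235, 237, 142, 122 and 104 normalized counts in the dorsal samples of polyA replicates 1 and 3 to 7. In replicate 2 the dorsal sample had 12.1 and the ventral sample 12.5, while the other ventral polyA samples had 35.4 to 123. The gene was thus low in both parts of this animal, and without the animal D was 2.17 in place of 2.13. Its RBD samples showed no such animal, with 341, 326 and 183 in the dorsal and 133, 142 and 87.0 in the ventral part.

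Row 12449 had 98.1 to 289 normalized counts (median 160) in dorsal and 51.1 to 122 (median 71.6) in ventral polyA samples. In RBD samples it had 392, 199 and 83.0 in the dorsal and 124, 112 and 94.0 in the ventral part, so that replicate 3 had the reverse order and the D of 2.04 rested mainly on replicate 1. Without polyA replicate 2, its D in polyA was 1.88. Row 6347 overlapped in both datasets and row 22459 in polyA only, the latter by 1 low dorsal sample. It had 284 normalized counts in replicate 5, where the highest ventral sample, that of replicate 3, had 286. Row 22459 was low in both parts of replicate 5, with 63.7 in the ventral sample and a ratio of 4.41. In polyA, row 6347 had 87.3 in ventral replicate 7, where the dorsal samples began at 72.4. In RBD it had 64.6 in ventral replicate 3 and 51.5 in dorsal replicate 2.

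The spread between animals was larger for the members than over all rows within the limits of level, but similar to that of genes with the reverse gradient. The log2 ratio of each animal was centred on the mean of its dataset, so that differences between the datasets did not enter. The SD of these centred ratios over the 10 animals had a median of 0.26 over the members. It was 0.27 over 194 rows chosen by the mirrored rule for predominance in the ventral part. Over all rows within the limits of level it was 0.12. At a mean level of 1000 or more it was 0.17 over 28 members and 0.087 over all such rows. These SDs were compared without a test. The mirrored rows had a lower median level than the members (261 against 498 normalized counts over all samples), so their SD is not matched for level. Low genes also count few reads, and over the classes of level the median SD of the members was 0.38, 0.19, 0.20 and 0.15 from the lowest to the highest.

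By this centred SD, the most variable members were rows 14274 and 19484. Row 14274 had 379 to 782 normalized counts (median 516) in dorsal polyA samples, and in the ventral part 28.6 in replicate 1 and 51.3 to 58.8 in the other 6 animals. In RBD samples it had 548, 168 and 833 in the dorsal and 72.2, 55.3 and 49.1 in the ventral part. The parts were separate in every animal, but the ratio went from 3.00 in RBD replicate 2 to 24.0 in polyA replicate 1. Row 19484 had 55.5 to 302 normalized counts (median 177) in dorsal and 46.4 to 86.6 (median 69.8) in ventral polyA samples, and the ratio was 0.96 in polyA replicate 3 and 4.94 in RBD replicate 3. The polyA values had an SD of 84.2 in the dorsal and of only 15.9 in the ventral samples.

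The centred SD was smallest for rows 10822 and 3435, with ratios of 2.07 to 2.75 and of 2.33 to 2.79 in the 10 animals. Row 10822 had 1076 to 1288 normalized counts (median 1230) in dorsal and 444 to 519 (median 463) in ventral polyA samples. Row 3435 had 10806 to 12089 (median 11473) in dorsal and 4054 to 4927 (median 4601) in ventral polyA samples. In the RBD animals the ratios of row 3435 were 2.59, 2.57 and 2.57.

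**Figure D4:**
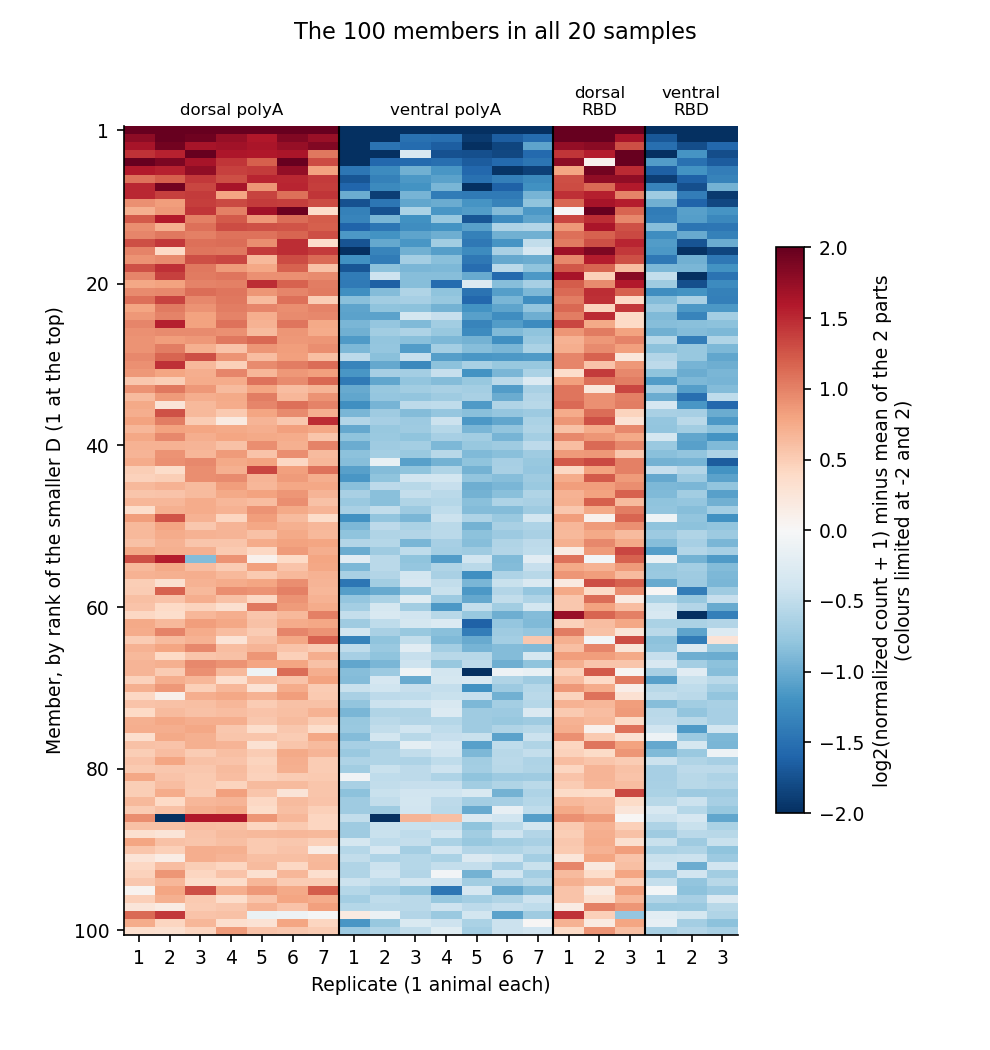
The 100 members, by rank of the smaller D from top to bottom, in the 20 samples, as log2(normalized count + 1) minus the mean of the 2 parts within a dataset, with colours limited at -2 and 2. Dorsal samples are mostly red and ventral samples mostly blue by the choice of the members; rank 86, row 18606, is blue in both parts of polyA replicate 2, and rank 54, row 19484, is blue in dorsal polyA replicate 3.

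In the ventral polyA samples the members tended to shift together. In ventral replicates 4, 3, 7 and 2, 79, 75, 67 and 62 of the 100 members were above their group mean, while in replicates 1, 5 and 6 this held for 24, 26 and 40. The median shift was small, from -0.14 in replicate 5 to 0.13 in replicate 4 on the log2 scale. The 194 rows higher in the ventral part moved the other way in each of the 7 ventral samples, with a median shift of 0.19 in replicate 1 and of -0.18 in replicate 4. The median over all rows within the limits of level stayed between -0.0071 and 0.013. In the dorsal polyA samples the median shift of the members was smaller, between -0.039 and 0.057, and in the 3 ventral RBD samples it was between -0.068 and 0.048. The opposite movement was not seen in all samples. In each of the 3 ventral RBD samples, and in dorsal polyA replicates 6 and 7, the median shifts of the members and of the 194 rows had the same sign. What these shifts come from was not tested. Over the 7 polyA animals the correlation (Pearson) between 2 members had a median of 0.28 for the ventral samples and of 0.062 for the dorsal ones, where all pairs of rows within the limits had medians of 0.0072 and 0.0029. The pairs share the same 7 libraries.

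The ratio of an animal is computed from the same ventral values, so it is higher where these are lower. The 3 polyA animals with the lowest ventral values of the members, replicates 5, 6 and 1, had median ratios of 3.04, 2.94 and 2.89, and replicates 2, 7, 3 and 4 had 2.68, 2.60, 2.54 and 2.46. In the same animals the median ratio of the mirrored rows, ventral to dorsal, was 2.96, 3.15 and 3.17 against 2.89, 2.65, 2.67 and 2.77. The CV was larger in the ventral than in the dorsal polyA samples for 72 members (48.5% of all rows within the limits). With at least 300 normalized counts in the ventral part, this held for 27 of 42 members (48.4% of all such rows). In RBD samples, with 3 animals, the CV was larger in the ventral part for 38 members (45.5% of all rows). With at least 300 normalized counts there, this held for 14 of 43 members (45.3%).

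**Figure D5:**
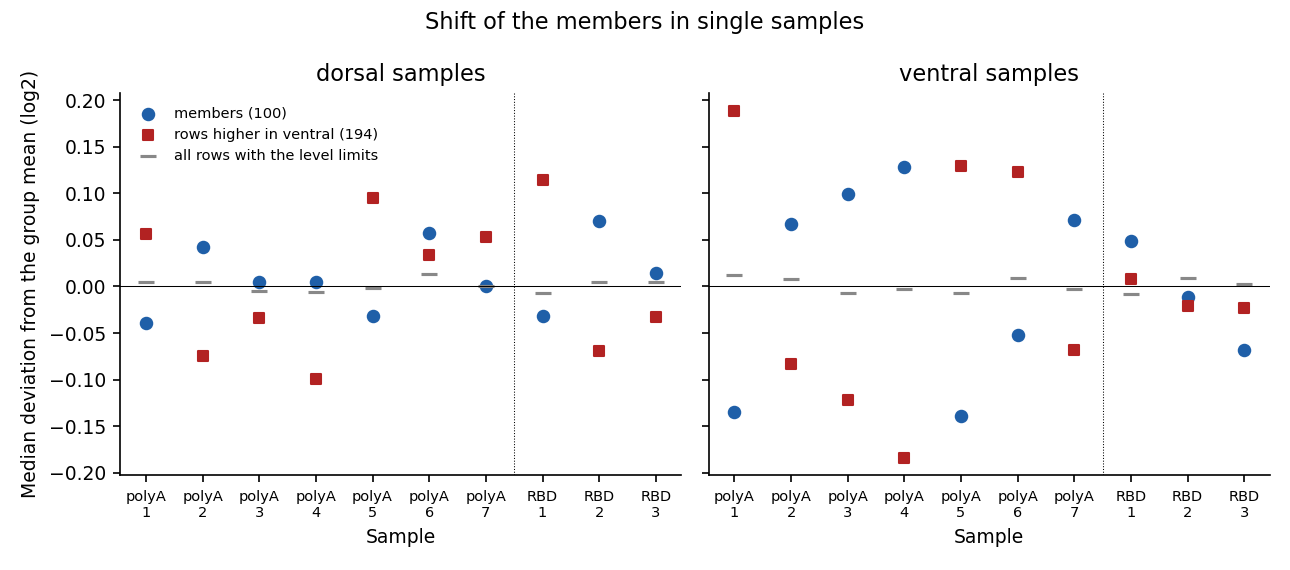
Median deviation from the mean of the group (log2) in each dorsal sample (left) and ventral sample (right), over the 100 members (blue circles), 194 rows higher in ventral (red squares) and all rows within the limits of level (grey dashes). In the 7 ventral polyA samples circles and squares lie on opposite sides of 0, from -0.14 to 0.13 and from -0.18 to 0.19, while in the 3 ventral RBD samples they lie on the same side.

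The 2 kinds of library gave similar ratios for most members. D was larger in RBD than in polyA samples for 69 members, the median of the ratio of the 2 values was 1.10, and 73 members had values within 1.25 times of each other. For 5 members they differed by more than 1.5 times. Over all rows tested, the median absolute log2 fold change was also larger in RBD (0.182) than in polyA samples (0.155). A larger D in RBD is therefore not read as a trait of the members. In a limma fit to all 20 samples that blocked on the animal, the interaction between part and library was tested, and 15 members were called (10.2% of all rows tested), 14 of them with the larger difference in RBD. Without the block limma called 0 members (0.198% of all rows). DESeq2 called 9 (4.61%) and edgeR 14 (8.25%). In simulated counts, this interaction test called more unchanged rows than its limit allows. These counts were drawn for each sample independently, so they lacked the pairing of an animal's samples on which the block rests. Both values of D were used by the rule, so nothing is read from these counts.

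The largest difference towards RBD was found in row 21114. It had 121 to 192 normalized counts (median 149) in dorsal and 47.6 to 76.9 (median 64.3) in ventral polyA samples. The RBD samples had 210, 142 and 128 in the dorsal and 50.3, 12.7 and 23.9 in the ventral part. The dorsal samples of the datasets overlapped, and RBD replicates 2 and 3 were below all ventral polyA samples, so that D was 2.36 in polyA and 5.38 in RBD. Row 16428 had 521 to 1106 (median 832) in dorsal and 89.2 to 314 (median 185) in ventral polyA samples. Its RBD samples had 1105, 1243 and 902 in the dorsal and 152, 85.3 and 94.0 in the ventral part, and D was 4.49 in polyA and 9.73 in RBD. Its samples overlapped between the datasets in both parts.

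The largest differences towards polyA were those of row 18333, which rest on 8 and 7 ventral reads, and of row 9769. The latter had 99.4 to 231 (median 163) in dorsal and 33.9 to 74.4 (median 54.4) in ventral polyA samples. In RBD samples it had 234, 177 and 281 in the dorsal and 153, 88.7 and 94.0 in the ventral part. D was 3.11 (polyA) and 2.05 (RBD), and all dorsal samples were above all ventral ones in both datasets.

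The level itself differed between the libraries by less than 4 times, as the rule required. The mean was higher in RBD samples for 45 members. The median ratio of RBD to polyA was 0.97, against 1.00 over all rows within the limits. Median-of-ratios scaling tends to bring the latter near 1.00, so levels between the libraries are relative to the typical gene. In dorsal samples, the members with the highest ratio of RBD to polyA were rows 21593 and 12205, with 2.66 and 2.37, and those with the lowest were rows 18095 and 16046, with 0.44 and 0.45. Row 21593 had 7723 to 13116 normalized counts (median 8885) in dorsal polyA and 24404, 31657 and 20008 in dorsal RBD samples, and its D was 3.07 in polyA and 2.94 in RBD. Row 16046 had 796 to 1438 (median 1168) in dorsal polyA and 503, 683 and 326 in dorsal RBD samples, with a D of 3.74 and 3.89. In these 4 genes the level differed between libraries by more than 2 times, and the ratios D differed by at most 1.23 times. The rule required a high D in both datasets, which favours genes with similar D, so nothing is read from this closeness.

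Since the members were chosen by all samples, the choice was repeated with a dataset or an animal held out. Chosen in polyA alone, with a mean of at least 50 and a D of at least 2, were 141 rows with a median D of 2.50. In RBD samples, which this choice did not use, their median D was 2.60, all 141 were higher in the dorsal part, 117 had a D of at least 2, and 136 were called by limma with dorsal higher (adjusted p below 0.1), where 14% of all rows tested were called. Chosen in RBD alone were 234 rows with a median D of 2.37. In polyA samples their median D was 1.96, 225 were higher in the dorsal part, 110 had a D of at least 2, and 217 of the 230 rows that were tested were called, where 27.5% of all rows were. The 100 members are among both lists by their definition.

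With the choice made from the other 9 animals, 84 to 96 of the 100 rows chosen had a ratio of at least 2 in the animal left out, and 99 or 100 were higher in its dorsal part. The median ratio in the animal left out was 2.46 to 3.04 in the polyA and 2.65 to 3.11 in the RBD animals, where that of all rows within the limits was 1.00 to 1.01. Of the 100 rows chosen in this way, 95 to 99 were members.

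Compared with the 194 rows that met the mirrored rule for the ventral part, fewer rows met the rule for the dorsal part (103), and the members had a higher level, with a median of 498 normalized counts over all samples against 261. The median smaller ratio was 2.56 for the members and 2.63 for the 194 rows, or 3.47 for the 100 of them with the largest ratios. These values are set side by side without a test, since both lists were chosen by the ratio.

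Some members stood in neighbouring rows of the table, which the rule did not use. Rows 3435, 3436 and 3437, rows 2175 and 2176, and rows 22846 and 22847 were all members, that is, 7 of the 100 genes in 4 pairs of adjacent rows. Their ratios were not equal within a pair. Row 22846 had a D of 2.98 in polyA next to 12.3 for row 22847, and rows 3435, 3436 and 3437 had 2.55, 2.30 and 3.92. The order in which the authors listed the genes is not given in the sources used here, and whether neighbouring rows share reads was not tested.

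Just inside the limit of the list were row 1269, with a D of 2.03 in polyA and 2.16 in RBD, and row 28763, with 2.02 and 2.42. Just outside it were row 9921, with 2.09 and 2.02, and row 14715, with 2.15 and 2.02. Row 1269 had 1426 to 2021 normalized counts (median 1577) in dorsal and 521 to 1182 (median 866) in ventral polyA samples, and row 9921 had 1119 to 1376 (median 1265) and 553 to 636 (median 595). The dorsal and ventral samples of these 4 genes did not overlap in either dataset.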

How the data were processed

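The deposited table holds normalized counts as signal values, in which the authors divided the gene counts of each sample by a median-of-ratios size factor. Reads had been mapped to the rat genome Rnor_6.0 with STAR 2.7.9a, counted with featureCounts 2.0.1 and normalized with DESeq2 1.29, by the submitters' processing notes. In each column all values (100%) were integer steps of its lowest value above 0 within a tolerance of 1e-06, which gave back the reads. Columns were assigned to samples by the description in the labels.

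The members and lists were chosen with earlier results of these data known. Rows given by number were chosen among the members by fixed criteria: the 4 largest smaller D, the 3 highest means, the 2 largest differences of D in each direction, the 2 lowest ventral means, the 2 largest and 2 smallest SDs between animals, the 2 highest and 2 lowest ratios of RBD to polyA in dorsal samples, and the 2 rows on each side of the limit. Exceptions are named as chosen after their values were seen. The SDs between animals were those of log2 ratios centred on the mean of each dataset. No lists of pathways or markers could be used without gene names.

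All rows kept by filterByExpr on the recovered reads (minimum count 10, minimum total 15) were fitted with limma 3.58.1 (lmFit, eBayes with trend, R 4.3.3) on log2(normalized count + 1), dorsal minus ventral, in each dataset alone without an animal term, with adjustment over all rows. This scale understates changes of low genes. Samples of an animal are paired by the labels, and their deviations correlated across rows by 0.27 to 0.48 in polyA and 0.36 to 0.52 in RBD animals. The interaction had the animal as a block. Alternatives were DESeq2 1.42.0 and edgeR 4.0.16 (quasi-likelihood test, TMM) on the recovered reads, for which edgeR called 4113 rows in polyA and 2060 in RBD with dorsal higher, the animal as a block, pseudocounts 0.1 and 5, other filters, scalings and thresholds, and leaving out each animal. The fits were tested on simulated counts with known changes, drawn for each sample independently and so without the pairing of an animal's samples. There the interaction test called more unchanged rows than its adjusted p limit of 0.1 allows. The tests within a dataset kept to it in polyA but slightly exceeded it in RBD. Depth was 14920611 to 25262001 reads per sample, and for genes with few reads counting error limits the ratio.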

Additional observations from a re-analysis of the deposited data

Results flagged for a closer look

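The dorsal values, the ventral values and the log2 ratios of the rows given by number made 63 groups of 7 polyA values. Of these, 6 held a sample far from the other 6. The gap to the nearest other sample was 0.58 to 0.80 of the range in these 6 groups. About 3.15 would be met by chance in independent groups of rows not picked for their values. These rows were picked for extreme values, and the ratios reuse the dorsal and ventral values, so the count is not compared with chance. In row 5427 it was replicate 3 in both parts, with 392 normalized counts in the dorsal part against 143 to 214 in the others, and 54.4 in the ventral part against 14.3 to 22.5. In row 14274 the ventral sample of replicate 1 had 28.6 normalized counts against 51.3 to 58.8. In row 28763 the dorsal sample of replicate 4 had 952 against 653 to 777. The log2 ratio of row 22847 was 4.72 in replicate 2 against 3.25 to 3.87. The ventral sample of replicate 4 had 2.68 normalized counts of row 18333 against 0 to 0.89, a matter of at most 3 reads.

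The interaction test with the animal as a block had an adjusted p (limma) below 0.1 for 4 of these rows, all with the larger difference in RBD. On the log2 scale, the RBD difference minus the polyA difference was 1.36 (standard error 0.27) in row 21114, 1.10 (0.25) in row 16428, 0.29 (0.092) in row 7124 and 0.29 (0.088) in row 12205. These values are a description, since both differences were used in choosing the members and rows 21114 and 16428 were picked for the size of this very difference. Without the block 0 of the 100 members were called (0.198% of all rows).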

How the results depend on the processing

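The calls of members in polyA (99 to 100) and RBD (95 to 99), the counts of members without overlap (95 to 97 in polyA, 98 to 100 in RBD) and the median log2 fold changes (1.39 to 1.46 in polyA, 1.53 to 1.62 in RBD) hardly moved when an animal was left out, which follows in part from choosing the members on all animals. The number of members called by the interaction was the unstable one. From 15 (10.2% of all rows tested) it went to 9 with DESeq2 (4.61%) and 0 with no replicate block (0.198%), so the share over all rows fell as well. It was 8 with no filter on low counts, 8 at an adjusted p below 0.05, and 7 to 19 with an animal left out. Omitting RBD replicate 3 gave 7, polyA replicate 3 gave 8 and RBD replicate 2 gave 9. For these settings the share over all rows is not given, so nothing is read from their counts about the members. With the animal as a replicate block, all 100 members were called in polyA (30.9% of all rows tested) and all 100 in RBD samples (20.3%). The number of rows that met the rule was 100 to 108 without an animal, of which 95 to 99 of the list were members, and 234 with the rule in RBD alone, whose list of 100 held 66 members. Without RBD replicate 3, rows 9769 and 19484, and without RBD replicate 1, row 14715, were no longer called in RBD. The causes were not tested. Counting error limits the ratio most in row 18333, with 8 ventral polyA reads.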
